A study of Homo sapiens with 4 samples.

Results

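The genes described here are the ligands, receptors, antagonists, latency proteins and SMADs of the TGF-beta and BMP pathways, with the ubiquitin ligases, corepressors and ID genes that belong to the same pathway. They were chosen by symbol, 53 genes of the 63677 rows of the expression table, and where a symbol had several rows the row with the highest mean was kept. The cells were MDA-MB-231, an established human line of triple-negative breast cancer (TNBC), which is a single cell line. They received a control siRNA (siCt, 2 libraries) or an ON-TARGET pool of siRNAs specific to AXL (siAXL, 2 libraries), delivered according to the methods with Lipofectamine 2000, and total RNA was sequenced to find the genes that differ when the receptor tyrosine kinase AXL is depleted. No source says whether the libraries of a group came from separate cultures, so the p-values measure only the spread between these libraries, which may be technical.

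In this pathway, dimeric ligands bind a type II receptor kinase, which phosphorylates a type I receptor kinase, and the type I receptor phosphorylates receptor SMADs that enter the nucleus with SMAD4. TGF-beta and activin ligands act mainly through SMAD2 and SMAD3, and BMP ligands act mainly through SMAD1, SMAD5 and SMAD9. In breast carcinoma the TGF-beta arm is known both for holding back the growth of epithelial cells and for driving their mesenchymal and invasive traits.

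AXL itself had normalized counts of 29189 and 30617 in the siCt libraries against 8658 and 7141 in the siAXL libraries. It was lower in both siAXL libraries, with a log2 fold change of -1.93 (SE 0.0919, limma adjusted p = 0.000585). The libraries held between 39574387 and 44585773 reads in genes, and for a gene at 0 up to 3 reads are still possible from counting error alone. Among the genes chosen as marks of this line, VIM, CD44, KRT8, KRT18 and ZEB1 had at least 2838 reads in every library, whereas SPARC had 19 to 57. The hormone receptors ESR1 and PGR had at most 3 reads. The epithelial cadherin CDH1 fell from 94 and 87 reads to 38 and 23 (log2 fold change -1.64, limma adjusted p = 0.00847). The epithelial genes EPCAM (589 and 577 reads in siCt, 732 and 785 in siAXL) and ERBB3 (627 and 662, 782 and 817) had values on the other side of the control, with log2 fold changes of 0.32 (limma adjusted p = 0.0513, edgeR 0.043) and 0.25 (limma adjusted p = 0.136). The 5 markers of other cell types (PTPRC, PECAM1, CDH5, ALB and COL3A1) summed to 15 reads in each siCt library and 26 in each siAXL library, PECAM1 being at 0 in all 4. In bulk RNA, fewer cells that express a gene and less of its RNA per cell cannot be told apart.

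Among the 53 genes, 47 had enough reads to be tested and 19 were called at an adjusted p under 0.05. Values are normalized counts, that is, reads divided by the size factor of the library, and each difference is the siAXL mean minus the siCt mean of log2(normalized count + 1). Depletion of AXL was followed by a rise of 14 genes (29.8% of those tested) and a fall of 5 (10.6%). Over all 16064 genes tested the same rule called 10.8% higher and 7.91% lower, 18.7% in either direction. The pathway genes were chosen with earlier results of these data known, so the gap between these shares is not independent evidence. The median log2 fold change of the 47 genes was 0.026, beside -0.0022 over all genes, so the called genes stood on both sides of a centre near 0. Both siAXL libraries were above both siCt libraries for 19 genes and below them for 12, and the libraries overlapped for 16. Over all genes the corresponding shares were 30.6% above and 30.5% below, together 61.2% without overlap. The remaining 6 genes, the ligand BMP7, the receptor ACVRL1, the co-receptor ENG and the antagonists CHRD, CHRDL2 and GREM1, had 0 to 6 reads per library and were not tested.

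The count of calls by role was 4 higher and 4 lower of 11 tested ligands, 2 higher of 9 signalling receptors, 3 higher of 5 antagonists, 2 higher of 4 latency proteins and 2 higher of 5 receptor SMADs. Of the 2 ubiquitin ligases 1 was higher, and of the 2 corepressors 1 was lower. None of the 2 tested co-receptors or decoys, 2 inhibitory SMADs and 4 ID genes was called, nor was SMAD4. Over all genes tested, 10.8% were higher and 7.91% lower, and the roles were not tested against each other. Of the 19 called genes, 8 were called in all 12 alternative fits, and these were TGFBR2, TGFBR1, CHRDL1, NOG, FSTL1, BMP2 and LTBP1 (higher) and INHBB (lower). When every gene with at least 1 read was tested, which added rows with few reads, the calls of TGFB1 (adjusted p = 0.0616), TGFB2 (0.0802), TGFB3 (0.105), GDF11 (0.0954), INHBA (0.0967), LTBP2 (0.0549), SMAD1 (0.0547), SMAD9 (0.0978) and SKIL (0.0999) were lost.

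**Figure D1:**
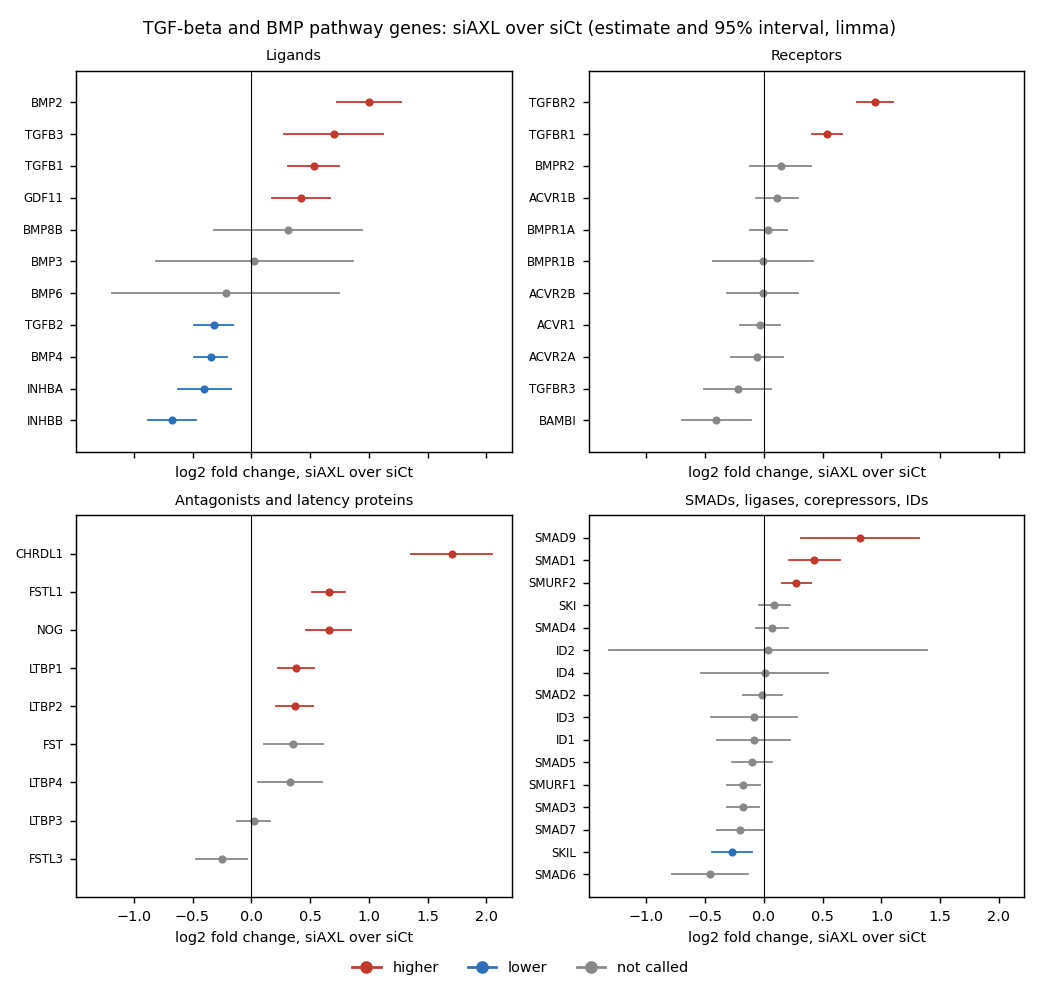
Log2 fold change of siAXL over siCt (x axis) for the 47 tested genes (y axis), in panels by role, with points for the limma estimate, bars for its 95% interval and colour for the call at an adjusted p under 0.05. The 14 higher genes reach from 0.28 (SMURF2) to 1.71 (CHRDL1) and the 5 lower genes from -0.27 (SKIL) to -0.67 (INHBB).

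The 3 TGF-beta ligands did not move together. TGFB1, which encodes the most widely expressed of these cytokines, had 3150 and 2592 normalized counts in siCt cells and 4178 and 4077 in siAXL cells. Both siAXL libraries were above both siCt libraries, and the siCt pair was further apart than the siAXL pair. The log2 fold change was 0.53 (SE 0.0922, limma adjusted p = 0.0112), with values of 0.39 to 0.67 when single libraries were left out. TGFB1 shares 215 exon bases with HNRNPUL1, which is transcribed in the other direction at 16014 reads a library against 3532 for TGFB1, and the strand setting of the counting is not given in the sources used here. 

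TGFB2, the isoform that binds the signalling receptors poorly without a co-receptor, had 4074 and 4558 normalized counts in siCt cells and 3515 and 3385 in siAXL cells, so the siAXL libraries were both lower. It fell by 0.32 on the log2 scale (SE 0.0696, limma adjusted p = 0.0226). The call was lost without siCt 2 (log2 fold change -0.24, adjusted p = 0.0533), without siAXL 1 (-0.35, 0.0512) and without siAXL 2 (-0.29, 0.0818). TGFB3 was a low transcript, with 94.9 and 71.5 normalized counts in siCt cells and 136 and 134 in siAXL cells. It rose by a log2 fold change of 0.70 (SE 0.179, limma adjusted p = 0.036), with the siAXL libraries close to each other and the siCt libraries apart. This call was lost with DESeq2 (adjusted p = 0.0828) and without siCt 2, siAXL 1 or siAXL 2, where the adjusted p was 0.101, 0.117 and 0.0979 and the log2 fold change 0.50, 0.69 and 0.72.

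Per kb of exon, TGFB1 made up 54.6% and 47.1% of the summed normalized count of the 3 TGF-beta ligands in the siCt libraries and 64.5% and 64.8% in the siAXL libraries. TGFB2 made up 44.4% and 52.1% in siCt cells and 34.1% and 33.8% in siAXL cells. In siCt cells either ligand could be the more abundant per kb, depending on the library, whereas TGFB1 was ahead in both siAXL libraries. The sum of the 3 ligands per kb was 1783 and 1700 in siCt cells and 2000 and 1943 in siAXL cells. These shares have 2 values a group, where the smallest two-sided p of an exact permutation test is 0.333, so no test was made of them.

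**Figure D2:**
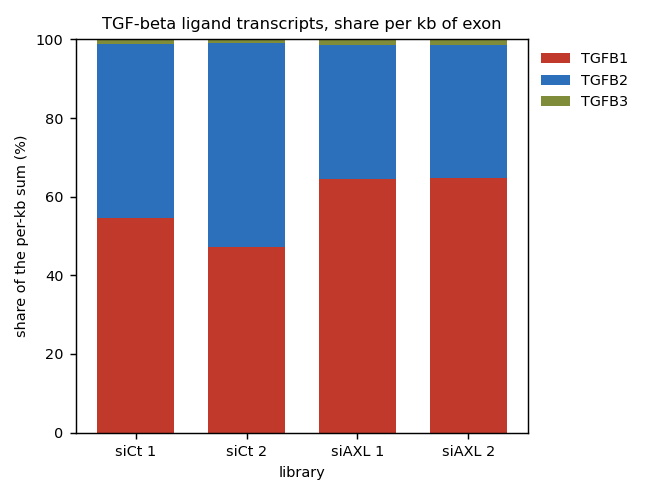
Share of each TGF-beta ligand in their summed normalized count per kb of exon (y axis, percent) in each of the 4 libraries (x axis). The TGFB1 share is 47.1% to 54.6% in siCt and 64.5% to 64.8% in siAXL, and TGFB3 stays under 2% in each library.

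Of the BMP ligands, BMP2 and BMP4, the 2 close homologues of this group, changed in opposite directions. BMP2 had 142 and 143 normalized counts in siCt cells and 295 and 278 in siAXL cells, a doubling that exceeded the spread within either pair. Its log2 fold change was 1.0 (SE 0.115, limma adjusted p = 0.00329). BMP4, which had the highest level per kb of the ligands, had 8614 and 8535 normalized counts in siCt cells and 7031 and 6481 in siAXL cells. Both siAXL libraries were below both siCt libraries, and BMP4 fell by 0.35 on the log2 scale (SE 0.0598, limma adjusted p = 0.0111). Without siAXL 2 its log2 fold change was -0.29 and the call was lost (adjusted p = 0.0576). BMP2 remained a small part of the pair, with 1.39% and 1.41% of their per-kb sum in siCt cells and 3.47% and 3.54% in siAXL cells.

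BMP3, BMP6 and BMP8B were near the lower end of what could be tested. BMP3 had 14.4 and 24.9 normalized counts in siCt and 22.3 and 16.7 in siAXL, and BMP6 had 10.5 and 20.6 in siCt and 10.7 and 14.7 in siAXL, so both overlapped. BMP8B had 89.2 and 53.1 normalized counts in siCt and 96.2 and 76.6 in siAXL, with a log2 fold change of 0.31 and a 95% interval of -0.32 to 0.95. It was called only when siCt 1 was left out (log2 fold change 0.68, adjusted p = 0.0416). Its reads are uncertain because it has the near copy BMP8A and overlaps PPIE, transcribed in the other direction.

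The activin subunits both fell. INHBB, which encodes the beta B subunit of activins and inhibins, had 712 and 706 normalized counts in siCt cells and 462 and 426 in siAXL cells. The groups stood well apart, and the log2 fold change was -0.67 (SE 0.0854, limma adjusted p = 0.00411). INHBA, the beta A subunit, had 942 and 1118 normalized counts in siCt cells and 771 and 783 in siAXL cells. It fell by 0.40 on the log2 scale (SE 0.0957, limma adjusted p = 0.03), and both siAXL libraries were lower. This call was lost without siCt 2 (log2 fold change -0.28, adjusted p = 0.0841), siAXL 1 (-0.39, 0.0896) or siAXL 2 (-0.41, 0.0709). GDF11, a ligand close to myostatin that uses the activin receptors, had 475 and 404 normalized counts in siCt and 599 and 575 in siAXL. It rose by a log2 fold change of 0.42 (SE 0.104, limma adjusted p = 0.0328), a call that was lost without siCt 2 (log2 fold change 0.31, adjusted p = 0.0918), siAXL 1 (0.39, 0.126) or siAXL 2 (0.45, 0.078). GDF11 overlaps SARNP, transcribed in the other direction at 67.2 reads a library against 517.5 for GDF11.

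**Figure D3:**
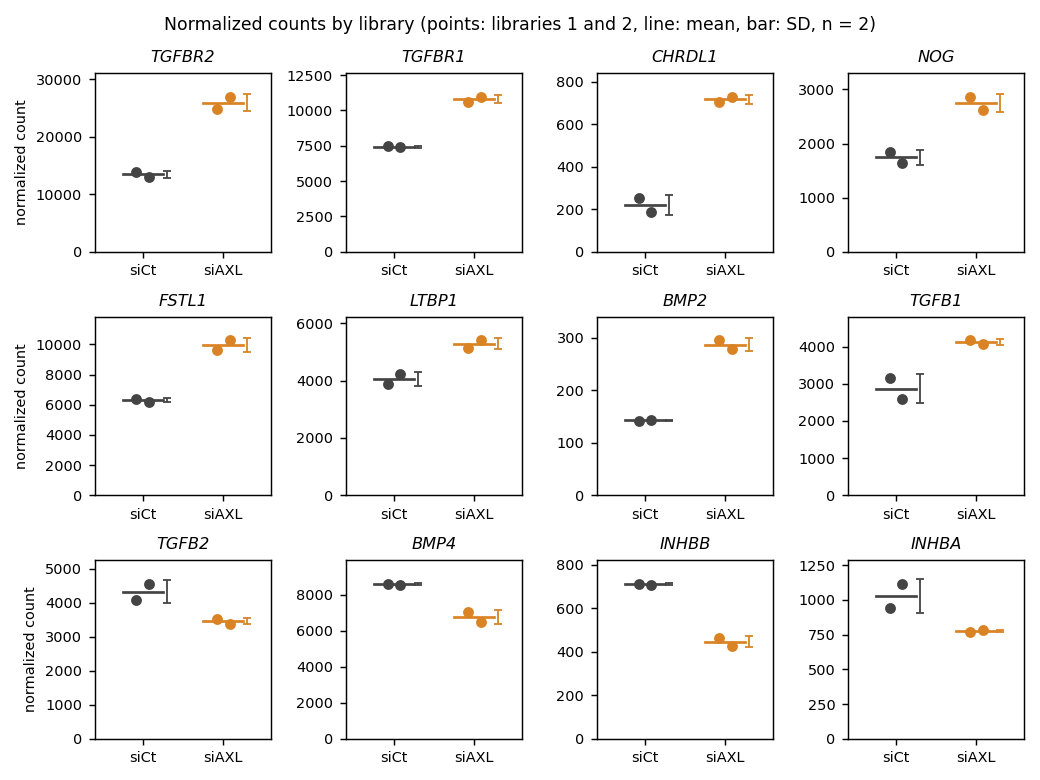
Normalized counts (y axis, from 0) of 12 ligands, receptors, antagonists and latency proteins in the siCt and siAXL libraries (x axis), with points for the libraries, lines for means and bars for SD (n = 2). The siAXL points lie above both siCt points in the first 8 panels, up to TGFB1, and below them for TGFB2, BMP4, INHBB and INHBA.

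The 2 receptors of TGF-beta both rose. TGFBR2, the type II kinase that binds the ligand first, had 13923 and 13043 normalized counts in siCt cells and 24890 and 27036 in siAXL cells, and its level per kb was the highest of all 53 genes in both groups. The groups did not overlap, and the log2 fold change was 0.94 (SE 0.0659, limma adjusted p = 0.00113). TGFBR1, its type I partner, had 7487 and 7391 normalized counts in siCt cells and 10613 and 10983 in siAXL cells. It rose by a log2 fold change of 0.54 (SE 0.0528, limma adjusted p = 0.00223), and neither call was lost in any alternative. The ratio of TGFBR2 to TGFBR1 per kb was 2.71 and 2.57 in the siCt libraries and 3.41 and 3.58 in the siAXL libraries.

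The other type I and type II receptors had values near those of the control cells. For the activin and BMP type I receptors, the log2 fold change was -0.03 for ACVR1 (95% interval -0.20 to 0.14), 0.11 for ACVR1B (-0.07 to 0.29), 0.03 for BMPR1A (-0.12 to 0.19) and -0.01 for BMPR1B (-0.43 to 0.42). Among the type II receptors it was -0.06 for ACVR2A (-0.28 to 0.16), -0.01 for ACVR2B (-0.32 to 0.29) and 0.14 for BMPR2 (-0.12 to 0.40). BMPR2, the main type II receptor for BMPs, had 3799 and 4517 normalized counts in siCt cells and 4155 and 5026 in siAXL cells. Its libraries overlapped between groups, and it was called only without siCt 2 (log2 fold change 0.27, adjusted p = 0.0367) among the fits that left out a library. ACVR2A, at 368.2 reads a library, overlaps ORC4 (1933 reads), which is transcribed in the other direction.

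The co-receptor TGFBR3, or betaglycan, which presents TGF-beta ligands and above all TGFB2 to the signalling receptors, had 1559 and 2020 normalized counts in siCt and 1451 and 1588 in siAXL. The groups overlapped, with a log2 fold change of -0.23 (95% interval -0.51 to 0.06), and without siCt 1 it was -0.41 (adjusted p = 0.000625). BAMBI, a decoy receptor that lacks the kinase domain, had 273 and 320 normalized counts in siCt and 213 and 233 in siAXL. Its log2 fold change was -0.41 (limma adjusted p = 0.0624), and it was called without siCt 1 (-0.52, adjusted p = 0.0126) and with library size scaling (-0.44, adjusted p = 0.0493).

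Secreted antagonists gave the largest change of the 47 genes. CHRDL1, a chordin-like protein that binds BMPs, had 254 and 189 normalized counts in siCt cells and 702 and 730 in siAXL cells. The higher siCt library was still far below both siAXL libraries, and the log2 fold change was 1.71 (SE 0.145, limma adjusted p = 0.00179), or 1.49 to 1.92 with single libraries left out. NOG, encoding noggin, which sequesters BMP2 and BMP4, had 1846 and 1639 normalized counts in siCt cells and 2870 and 2626 in siAXL cells. It rose by a log2 fold change of 0.66 (SE 0.0802, limma adjusted p = 0.00376). Per kb, NOG stood at 0.349 and 0.313 of the BMP4 level in siCt cells and at 0.665 and 0.660 in siAXL cells. FSTL1, a follistatin-like glycoprotein, had 6399 and 6189 normalized counts in siCt and 9603 and 10284 in siAXL, with a log2 fold change of 0.66 (SE 0.0587, limma adjusted p = 0.00184). All 3 kept their call in each alternative.

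FST and FSTL3, which bind activins, were not called, and their values lay on opposite sides of the control. FST had 323 and 351 normalized counts in siCt and 459 and 407 in siAXL (log2 fold change 0.36, limma adjusted p = 0.057). FSTL3 had 1792 and 1604 in siCt and 1533 and 1322 in siAXL (log2 fold change -0.25, limma adjusted p = 0.104). Each of them passed the test without siCt 2, with a log2 fold change of 0.42 for FST (adjusted p = 0.0321) and -0.33 for FSTL3 (adjusted p = 0.0142).

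A 7-base word, CACATCA, was looked for in the annotated 3′ UTRs because earlier results of these data had singled it out among genes that were higher in siAXL cells, so its link with that direction is not independent evidence. The siRNA sequences are not given in the sources used here. In the GENCODE 29 annotation (GRCh38, sense strand only), 11.6% of the 12988 tested genes with a 3′ UTR held the word, and their median log2 fold change was 0.102 beside -0.0101 for genes without it. They also had longer UTRs, with a median of 3224 bases beside 1207. Among the pathway genes it was held by 9 of 47 (19.1%), of which CHRDL1, TGFBR1 and GDF11 rose and TGFB2 fell, and BMPR1A, BMPR2, SMAD2, SMAD4 and SMAD5 were not called. The share called higher was 33.3% of the 9 pathway genes with the word and 28.9% of the 38 without it, beside 26.5% and 11% over all genes. The share called lower was 11.1% and 10.5% among pathway genes, beside 5.84% and 9.79% over all genes. The sites of the 4 called genes are shown, each within the 3′ UTR exon of the gene and read along its transcript, with the word in capitals. They lie at chrX:110675254-110675282 and chrX:110674558-110674586 (CHRDL1, minus strand), chr9:99150205-99150233 and chr9:99152619-99152647 (TGFBR1, plus strand), chr12:55756832-55756860 (GDF11, plus strand) and chr1:218443212-218443240 (TGFB2, plus strand).
CHRDL1 first site: ctttttgctttCACATCAataaaatttac
CHRDL1 second site: actctcaccagCACATCAcacacgttctc
TGFBR1 first site: ttgaatattctCACATCAagcttttgcat
TGFBR1 second site: atcccattagaCACATCAtcaaaagctta
GDF11 site: tagtatcgtatCACATCAcccttgaaatc
TGFB2 site: aaataatttgcCACATCAttgcagaagag
The median log2 fold change was 0.068 for the 9 pathway genes that hold the word and 0.015 for the 38 that do not. The median UTR lengths of these groups were 6578 and 1504 bases. TGFBR2, NOG, FSTL1 and BMP2 rose and hold no copy. The part of these sites in the changes of CHRDL1 and TGFBR1 was not tested.

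Latent TGF-beta binding proteins are secreted proteins of the extracellular matrix, of which LTBP1, LTBP3 and LTBP4 bind latent TGF-beta and LTBP2 is known not to. LTBP1 had 3898 and 4229 normalized counts in siCt cells and 5159 and 5421 in siAXL cells, and LTBP2 had 2766 and 2878 in siCt and 3470 and 3828 in siAXL. Both were higher in each siAXL library, by a log2 fold change of 0.38 for LTBP1 (SE 0.0635, limma adjusted p = 0.00979) and 0.37 for LTBP2 (SE 0.0673, limma adjusted p = 0.013). The LTBP2 call was lost without siAXL 2 (log2 fold change 0.30, adjusted p = 0.0622). LTBP3 had 2598 and 2518 normalized counts in siCt and 2534 and 2661 in siAXL, with a log2 fold change of 0.02 (95% interval -0.12 to 0.16). LTBP4 had 4047 and 3303 normalized counts in siCt and 5026 and 4218 in siAXL, a pair of groups with wide and similar gaps inside each. Its log2 fold change was 0.33 (limma adjusted p = 0.0879), and it passed with DESeq2 (adjusted p = 0.03), without siCt 1 (0.48, adjusted p = 1.75e-05) and without siAXL 2 (0.46, adjusted p = 0.0372).

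Among the SMADs, the called genes were 2 of the 3 that carry BMP signals. SMAD1 had 354 and 365 normalized counts in siCt cells and 470 and 499 in siAXL cells, with no overlap. It rose by a log2 fold change of 0.43 (SE 0.0913, limma adjusted p = 0.0215), and the call was lost without siAXL 1 (0.47, adjusted p = 0.0643) or siAXL 2 (0.39, adjusted p = 0.11). SMAD9 was far scarcer, with 29.7 and 31.4 normalized counts in siCt and 50.5 and 59.0 in siAXL, and rose by a log2 fold change of 0.82 (SE 0.214, limma adjusted p = 0.0394). DESeq2 gave SMAD9 no adjusted p. The call on SMAD9 was lost without siCt 1 (0.78, adjusted p = 0.0541), siAXL 1 (0.93, 0.0986) or siAXL 2 (0.71, 0.188). SMAD5, the most abundant of the 3, had a log2 fold change of -0.10 (95% interval -0.28 to 0.07).

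The SMADs of the TGF-beta and activin arm were not called. SMAD3, the most abundant SMAD per kb, had 13726 and 14250 normalized counts in siCt cells and 12027 and 12676 in siAXL cells. Both siAXL libraries were below both siCt libraries, with a log2 fold change of -0.18 (limma adjusted p = 0.069), and it passed with library size scaling (-0.21, adjusted p = 0.0311). SMAD2 had 3461 and 3739 normalized counts in siCt and 3393 and 3732 in siAXL (log2 fold change -0.02, 95% interval -0.18 to 0.15). SMAD4, the shared partner, had 2108 and 2150 in siCt and 2232 and 2231 in siAXL (log2 fold change 0.07, 95% interval -0.07 to 0.20).

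SMAD6 and SMAD7, the inhibitory SMADs that are themselves induced by the pathway, were below the control in both siAXL libraries without passing the test. SMAD6 had 190 and 173 normalized counts in siCt and 123 and 141 in siAXL (log2 fold change -0.46, 95% interval -0.79 to -0.13, limma adjusted p = 0.0596). SMAD7 had 561 and 555 in siCt and 476 and 494 in siAXL (log2 fold change -0.20, 95% interval -0.40 to -0.01, limma adjusted p = 0.137). The promoter of SMAD6 was the only one of 46 pathway promoters (RefSeq, GRCh38.p14, 250 bases before to 50 after the start) that held the palindrome GTCTAGAC, a known binding sequence of SMAD proteins, which reads the same on both strands. Of all 35116 promoters, 0.202% held it. The match is shown in capitals with its flanks (chr15:66702213-66702242, plus strand).
SMAD6 promoter: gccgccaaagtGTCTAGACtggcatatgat
The shorter GGCGCC, searched on both strands and bound by BMP SMADs, was in 34.8% of pathway promoters and 19.2% of all, and CAGACA in 15.2% and 16.9%. The pathway set held a single promoter per gene, whereas the whole set was not limited to tested genes or matched for base content. The gap between these shares was not tested. The 16 pathway promoters with GGCGCC were those of FSTL1 and LTBP2, which rose, of BMP4, INHBB and SKIL, which fell, of ACVR1, ACVR1B, BAMBI, BMPR2, FSTL3, SMAD2, SMAD3, SMAD4 and SMAD5, which were not called, and of CHRD and GREM1, which were not tested.

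Of the ubiquitin ligases that mark receptors and SMADs for degradation, SMURF2 had 17406 and 17160 normalized counts in siCt cells and 20668 and 21169 in siAXL cells. Both siAXL libraries were higher, and the log2 fold change was 0.28 (SE 0.0533, limma adjusted p = 0.0156). The call was lost without siCt 2 (0.27, adjusted p = 0.051), siAXL 1 (0.29, 0.0638) or siAXL 2 (0.26, 0.085), and SMURF2 (19203 reads a library) overlaps CEP95 (1236), transcribed in the other direction. SMURF1 had 5920 and 6370 normalized counts in siCt and 5449 and 5432 in siAXL (log2 fold change -0.17, limma adjusted p = 0.0802). It passed without siCt 1 (-0.23, adjusted p = 0.0471) and with library size scaling (-0.20, adjusted p = 0.0412), and overlaps TRRAP (6516 reads a library), transcribed in the other direction.

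The corepressors SKI and SKIL hold SMAD complexes inactive at their targets. SKIL, itself a target of TGF-beta, had 1290 and 1409 normalized counts in siCt cells and 1128 and 1105 in siAXL cells. It fell by 0.27 on the log2 scale (SE 0.0726, limma adjusted p = 0.042), and the call was lost with DESeq2 (adjusted p = 0.0626) and without siCt 2 (-0.21, adjusted p = 0.176), siAXL 1 (-0.29, 0.13) or siAXL 2 (-0.26, 0.156). SKI had 5449 and 5429 in siCt and 5609 and 5950 in siAXL, with a log2 fold change of 0.09 (95% interval -0.05 to 0.22).

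The ID genes encode inhibitors of basic helix-loop-helix factors and are the classical targets of BMP signalling. All 4 overlapped between the groups. ID1, the most abundant, had 870 and 1100 normalized counts in siCt cells and 844 and 1004 in siAXL cells, and its log2 fold change of -0.09 had a 95% interval of -0.40 to 0.22. ID3 had 135 and 169 in siCt and 147 and 139 in siAXL (log2 fold change -0.08, 95% interval -0.45 to 0.28), and ID4 had 69.0 and 80.2 in siCt and 61.2 and 91.4 in siAXL (0.01, -0.53 to 0.55). ID2 had 13.4 and 4.33 in siCt and 10.7 and 5.90 in siAXL, so few reads that its interval ran from -1.32 to 1.39.

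Ordered by level per kb of exon, TGFBR2 (2866 in siCt), BMP4 (2782), SMURF2 (2483), SMAD3 (1535) and TGFBR1 (1087) led in the control cells. In siAXL cells the order was TGFBR2 (5519), SMURF2 (3005), BMP4 (2192), TGFBR1 (1578) and NOG (1452). TGFBR2 was above BMP4 within each library, by little in the siCt libraries, where the ranges of the 2 genes overlapped. The lengths count all annotated exons of a gene, and the order depends on them.

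**Figure D4:**
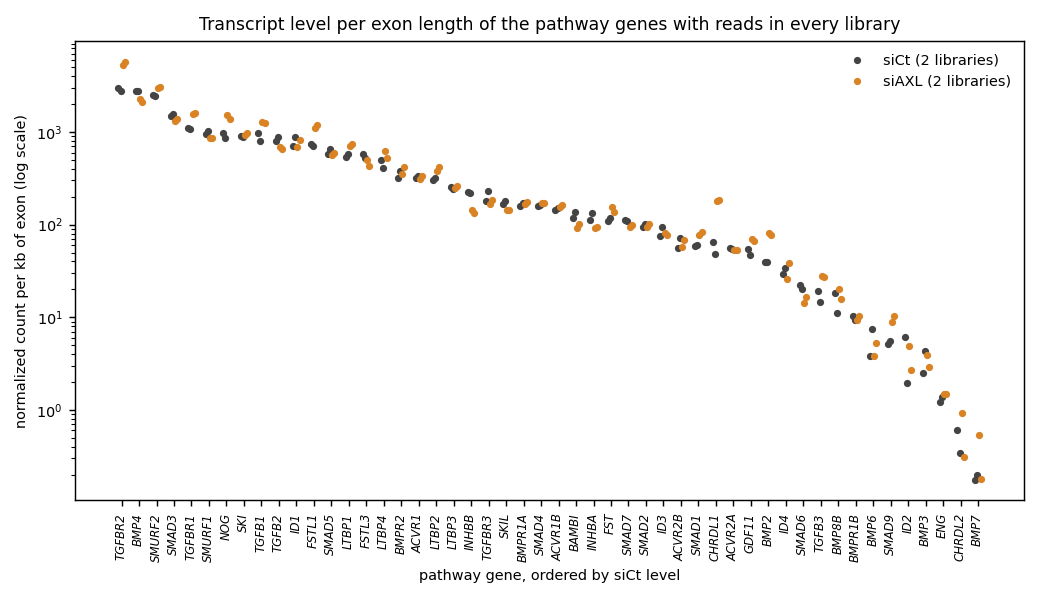
Normalized count per kb of exon (y axis, log scale) of each pathway gene with reads in every library (x axis, ordered by the siCt mean), with 1 point per library. TGFBR2 leads at 2773 or more in each library, and the genes that stand apart by group include CHRDL1, BMP2, NOG and INHBB.

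The wider pathway was read from 2 further lists. Both were chosen with earlier results of these data known, so their shares beside those of all genes are not independent evidence. Of 30 genes that TGF-beta is known to regulate, 28 were tested, with a median log2 fold change of 0.12 beside -0.0022 over all genes. Of these, 7 were higher (25%) and 2 lower (7.14%), beside 10.8% and 7.91% over all genes tested. The higher genes with the smallest adjusted p were LOX, a collagen cross-linking enzyme (2904 and 2810 normalized counts in siCt, 5005 and 4761 in siAXL, log2 fold change 0.77, SE 0.0577, limma adjusted p = 0.00136), and the transcription factor BHLHE40 (0.42, limma adjusted p = 0.00563). These 2 genes were called in each of the 12 alternatives. The others were the transcription factor JUNB (0.33), the growth factor PDGFB (0.99), the collagens COL4A1 (0.31) and COL1A2 (0.48) and the protease MMP9 (1.09), the last at 10 to 27 reads per library. PDGFB was lost without siAXL 1 (0.80), and JUNB, COL4A1 and COL1A2 were lost without siAXL 1 (0.34, 0.33 and 0.38) and without siAXL 2 (0.33, 0.29 and 0.57). MMP9 was lost when any library was left out (0.94 to 1.24), and COL1A2 also with DESeq2 (adjusted p = 0.0567). DESeq2 gave PDGFB and MMP9 no adjusted p. PMEPA1, a feedback inhibitor that holds back SMAD signalling, fell by 0.22 on the log2 scale (limma adjusted p = 0.036), and so did the collagen gene COL1A1, by 0.25 (limma adjusted p = 0.0378). Both falls were lost without siCt 2, siAXL 1 or siAXL 2, with log2 fold changes of -0.20, -0.18 and -0.26 for PMEPA1 and -0.23, -0.28 and -0.22 for COL1A1, which was also lost with DESeq2 (adjusted p = 0.0662). Testing every gene with at least 1 read ended the calls of PDGFB (adjusted p = 0.0843), COL4A1 (0.066), COL1A2 (0.0893), MMP9 (0.11), PMEPA1 (0.0926) and COL1A1 (0.0859).

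CTGF and CYR61, which encode matricellular proteins and belong to the list of TGF-beta targets, were not called. CTGF had 4009 and 3624 normalized counts in siCt cells and 4279 and 4346 in siAXL cells, with both siAXL libraries higher (log2 fold change 0.18, limma adjusted p = 0.103). CYR61 had 24385 and 29414 in siCt and 20577 and 22781 in siAXL, with both siAXL libraries lower (log2 fold change -0.31, limma adjusted p = 0.0697). Without siCt 1 both passed, at 0.25 (adjusted p = 0.0274) and -0.44 (adjusted p = 0.000458), and CYR61 also passed with DESeq2 (adjusted p = 0.014) and with library size scaling (adjusted p = 0.0486).

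Of 72 other pathway genes, 47 were tested, with a median log2 fold change of 0.04. Of these, 7 were higher (14.9%) and 5 lower (10.6%), beside 10.8% and 7.91% over all genes tested. Among the higher genes, FBN1, the microfibril protein fibrillin, had 1442 and 1634 normalized counts in siCt and 2644 and 2952 in siAXL (log2 fold change 0.86, limma adjusted p = 0.00234). HTRA1, a secreted serine protease, rose by 0.79 (limma adjusted p = 0.00136), and FURIN, the convertase that cleaves the TGF-beta precursor, had 2748 in both siCt libraries and 4085 and 4296 in siAXL (0.61, limma adjusted p = 0.0021). ITGAV, an integrin subunit that frees latent TGF-beta (0.33), TGIF2, a SMAD corepressor (0.27), and PPM1A, a phosphatase of receptor SMADs (0.25), were also higher. ITGAV and TGIF2 were lost without siAXL 2 (0.30 and 0.21), and PPM1A without siCt 1, siAXL 1 or siAXL 2 (0.21, 0.29 and 0.20). BMP1, a protease that cleaves chordin and LTBP1 (0.25), was lost without siAXL 1 (0.19, adjusted p = 0.209) and without siCt 2 (0.24, adjusted p = 0.0524), and with library size scaling (0.22, adjusted p = 0.051).

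The lower genes of that list were led by secreted proteins. The distant family ligand GDF15 had 2529 and 3373 normalized counts in siCt cells and 514 and 682 in siAXL cells (log2 fold change -2.30, limma adjusted p = 0.0013). KCP, a chordin-like modulator of BMP signals, had 99.7 and 93.2 in siCt and 27.2 and 34.4 in siAXL (-1.62, limma adjusted p = 0.00406). SOST, encoding sclerostin, had 222 and 202 in siCt and 89.4 and 81.6 in siAXL (-1.30, limma adjusted p = 0.00276). KCP and SOST fell while CHRDL1, NOG and FSTL1 rose, so the genes of secreted proteins named here included called genes in both directions. RBL1 (-0.36), a pocket protein, was lost without siAXL 1 (-0.31, adjusted p = 0.066), and NEDD4L (-0.22), a ubiquitin ligase for SMADs, without siCt 2, siAXL 1 or siAXL 2 (-0.19, -0.19 and -0.25). Testing every gene with at least 1 read ended the calls of BMP1 (adjusted p = 0.0946), ITGAV (0.0646), TGIF2 (0.0914), PPM1A (0.0922), RBL1 (0.0569) and NEDD4L (0.0911).

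**Figure D5:**
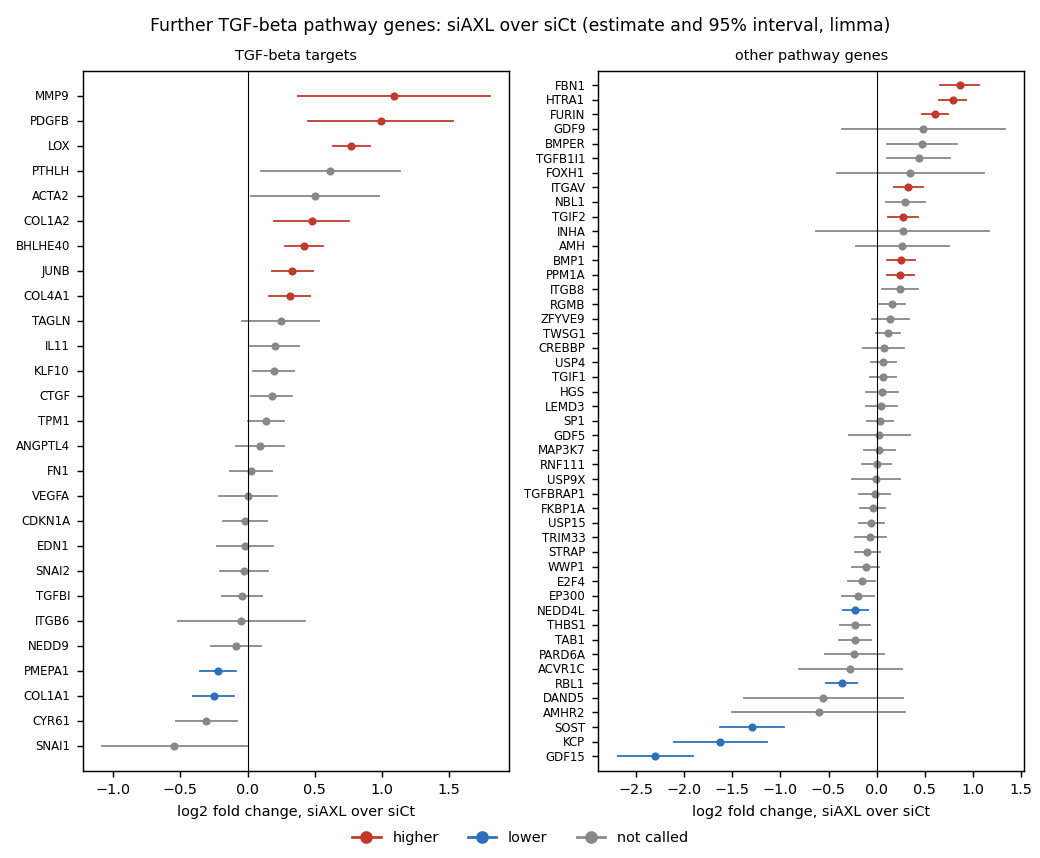
Log2 fold change of siAXL over siCt (x axis) for the tested TGF-beta target genes (left, with 1 gene left out) and the 47 tested other pathway genes (right), with points for the limma estimate, bars for its 95% interval and colour for the call. LOX, FBN1, HTRA1 and FURIN lie above 0.60, and GDF15, KCP and SOST at -1.30 or below.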

How the data were processed

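RNA of 4 MDA-MB-231 libraries was measured, 2 siCt and 2 siAXL, grouped by their labels. The submitters' processing notes name CASAVA 1.8, TopHat2 2.0.10, HTSeq 0.5.3, DESeq2 1.4.5 and the build GRCh37. The annotation and the strand setting are not given in the sources used here. The authors deposited a signal per gene, read counts divided by a size factor for each library (normalized counts). The deposited p-values, log2 fold changes, their errors, Wald scores and overall mean belong to the authors' own comparison and were not used. In each library 100% of the values were whole multiples of 1 read (tolerance 0.02), so reads were recovered by division, 39574387 to 44585773 per library. Libraries of a group differed by more than sampling noise (chi-square per gene 20.1 for siCt and 18.2 for siAXL) and were kept as separate samples.

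The main test was limma 3.58.1 (intensity trend, no covariates, R 4.3.3) on normalized counts as log2(value + 1), which understates changes of low genes. It covered the 16064 genes that passed the filterByExpr filter of edgeR and left out 47613, of which 6 are pathway genes. Calls were made at an adjusted p under 0.05 (Benjamini-Hochberg, over all genes tested). The alternatives were edgeR 4.0.16 and DESeq2 1.42.0 on the recovered reads, which called 3122 and 2598 genes (DESeq2 gave 12949 an adjusted p), TMM and library size scaling, pseudocounts of 0.5 and 8, a filter of 1 read in any library, a threshold of 0.01, a replicate block and leaving out each library. The limma script was tested on simulated data. It recovered 57 of 100 genes changed by 0.5 on the log2 scale and 86 of 100 changed by 1, with 7 false calls. A gene that was not called may therefore still differ.

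Exon lengths, 3′ UTRs and overlaps came from GENCODE 29 (GRCh38) by Ensembl identifier, with lengths for all 53 genes, and promoters from RefSeq (GRCh38.p14) for 46. Both differ from the build of the files. Pathway genes and lists were chosen with earlier results of these data known. The text names AXL and all 53 genes. Per list it names up to 6 called genes with the smallest adjusted p in each direction. Of the list genes whose call changes under an alternative, it names only some. The UTR word was chosen with values seen. Some genes of the lists are counted but not reported here.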

Additional observations from a re-analysis of the deposited data

How the results depend on the processing

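Of the 19 calls among the pathway genes, 8 held in all 12 alternatives, and no called gene changed direction in any. edgeR called 19, DESeq2 17, TMM scaling 19, library size scaling 22, and pseudocounts of 0.5 and 8 called 19 each. Testing every gene with 1 read in any library left 10 calls among the pathway genes (8 higher, 2 lower), 3 among the TGF-beta targets, 6 among the other pathway genes and 1097 among all 27108 genes so tested. A threshold of 0.01 left 8, 2, 6 and 859. With single libraries left out, the counts ranged from 10 to 23 for the pathway genes, 2 to 13 for the targets, 8 to 16 for the other pathway genes and 1301 to 3900 for all genes. Of the 19 calls, 10 were lost without siAXL 2, 8 without siAXL 1, 6 without siCt 2 and 1 without siCt 1. The main count over all genes was 3006 (1735 higher, 1271 lower), and library size scaling gave 3281 (1536 higher, 1745 lower). The median over the pathway genes, 0.026, ranged from 0.0031 to 0.084 with a library left out, the latter without siCt 2. A fit without a library has a lone sample in that group, assumed to vary like the other group, and the filter of 1 read tests more genes. The cause of the shifts was otherwise not tested.

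The replicate numbers shared by the groups did not mark a stated pairing. Deviations of same-numbered libraries from their group means correlated at 0.27 over genes. With 2 libraries a group these deviations mirror each other, so both pairs give the same value and it is not a correlation over 2 pairs. A fit with the replicate block called 30 pathway genes (17 higher, 13 lower), 18 targets, 26 other pathway genes and 7310 genes in all (3737 higher, 3573 lower), and kept all 19 main calls. Above, this fit is not listed among those in which a gene uncalled in the main test passed.

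Some genes near 0 changed sign, and were not called in the fits in which they did. With library size scaling the log2 fold change was -0.0019 for BMP3, -0.0073 for LTBP3 and -0.021 for ID4. It was 0.0010 for BMPR1B with TMM, and -0.13 with edgeR and -0.013 with a pseudocount of 8 for ID2. With single libraries left out, the range was -0.35 to 0.40 for BMP3, -0.67 to 0.23 for BMP6, -0.054 to 0.68 for BMP8B, -0.087 to 0.023 for ACVR1, -0.019 to 0.088 for BMPR1A, -0.072 to 0.056 for BMPR1B, -0.18 to 0.16 for ACVR2B, -0.013 to 0.057 for LTBP3, -0.084 to 0.053 for SMAD2, -0.26 to 0.082 for ID1, -0.68 to 0.75 for ID2, -0.24 to 0.076 for ID3 and -0.28 to 0.29 for ID4.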
